A study of Mus musculus with 26 samples.

Results

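Astrocytes were followed through 10 genes picked by symbol: Slc1a2, Slc1a3, Aqp4, Gja1, Aldoc, Aldh1l1, Ndrg2, Agt, Gfap and S100b. All 10 were rows of all 26 count tables, among 31735 gene symbols common to those tables, and all 10 passed the filter on low counts in the fit of all IP libraries and in that of IP against input RNA. RNA was taken from the nucleus accumbens, part of the ventral striatum, of mice given long access to intravenous cocaine or to saline. Every animal came from the Drd2-TRAP CP101 line (FVB/N-Swiss Webster crossed to C57BL/6), in which EGFP-tagged ribosomal protein L10a is made under control of Drd2. The tag therefore marks D2-receptor neurons and any other cell that uses the Drd2 promoter, and astrocytes are not the labelled target. The 24 immunopurified (IP) libraries, made from polysomes caught with antibodies to EGFP, were nonescalating cocaine followed by withdrawal (n = 8), saline followed by withdrawal (n = 6), escalating cocaine (n = 2), nonescalating cocaine (n = 5) and saline (n = 3). Escalating and nonescalating refer to whether cocaine intake escalated. Total RNA, taken as input without the pull-down, was sequenced in 1 nonescalating and 1 saline library. The sources used here do not give dose, session length, length of withdrawal, age, sex or the animals per library. The 5 nonescalating libraries are grouped by their titles, while their description field names withdrawal, so any contrast that uses them depends on the title being right. The withdrawal libraries were numbered in 2 separate runs, called library sets 1 and 2 here, while all other libraries belong to set 1.

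Astrocytes are the glial cells that take up transmitter, buffer potassium and water, couple to one another through gap junctions and supply neurons with metabolites. In the striatum their processes wrap the glutamate synapses of medium spiny neurons, where astrocytic glutamate uptake has been linked to drug seeking after cocaine in rodents. In TRAP experiments on neurons, astrocyte mRNA in the pull-down is commonly read as a gauge of RNA carried along from untagged cells.

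Counts in genes ran from 1.54 to 17.5 M per IP library (median 3.27 M), against 37.5 M in the nonescalating input and 4.70 M in the saline input. Levels are given as CPM, a gene's count relative to the library's total after TMM scaling, and 3 counts were worth 0.198 to 2.19 CPM in an IP library. Drd2, the gene that drives the tag, averaged 1825 ± 821 CPM in the 8 nonescalating and saline IP libraries and 335 ± 79.7 CPM in the 2 inputs (SD), a difference that did not pass (adjusted p = 0.171 in edgeR). Nonescalating replicate 4 stood apart, with Drd2 at 243 CPM, the lowest of the 24, and 62.5% of its reads in no annotated feature, the highest of the 24. That library held the highest IP level for 7 of the 10 astrocyte genes, so results are given with and without it where it matters. Nonescalating replicate 2 had the next highest share of reads in no feature, 60.24%, and the lowest Slc1a2 of the 24 (277 CPM). Values without replicate 2 are not printed singly, so the leaving out is one-sided. In bulk RNA, fewer astrocytes or astrocyte fragments and less RNA per cell cannot be told apart.

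The 2 glutamate transporters were measured first. Slc1a2 (EAAT2, also called GLT-1; chr2:102658659-102790784 in GRCm38, plus strand) is the main glutamate uptake carrier of forebrain astrocytes, and it made up most of the signal. It was measured at 1351, 277, 1882, 2175 and 1877 CPM in nonescalating IP libraries and 2092, 901 and 1529 CPM in saline IP libraries, against 2423 CPM in the nonescalating input and 2255 CPM in the saline input. All 8 IP libraries lay below both inputs, yet 6 of them were above all but 1 of the 14 withdrawal libraries. Withdrawal libraries held 399 to 1778 CPM (median 698) in nonescalating withdrawal and 322 to 1057 CPM (median 615) in saline withdrawal libraries. The escalating libraries had 991 and 1513 CPM. Across the 24 IP libraries Slc1a2 took 57.9% to 88.6% of the summed CPM of the 10 genes (median 75.8%), against 64.4% and 74.8% in the inputs.

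Slc1a3 (EAAT1, also called GLAST) is the second astrocytic glutamate carrier and is best known from cerebellar Bergmann glia. It reached 67.1, 30.5, 86.7, 133 and 97.2 CPM in nonescalating IP libraries and 22.7, 16.2 and 92.0 CPM in saline IP libraries, against 169.5 CPM in the nonescalating input and 112 CPM in the saline input. Saline replicate 4 lay well above the other 2 saline libraries. In withdrawal its medians were 28.1 CPM (nonescalating, range 6.71 to 68.8) and 26.8 CPM (saline, range 13.7 to 62.9).

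The water channel and the gap junction gene were measured at lower levels, with a coefficient of variation over the 24 IP libraries of 80.5% for Aqp4 and 115.7% for Gja1, against 72.1% for Slc1a3. Aqp4, which encodes the aquaporin of astrocyte endfeet on vessels, had 24.3, 1.81, 9.67, 42.7 and 16.1 CPM in nonescalating IP libraries and 16.3, 12.5 and 25.4 CPM in saline IP libraries, against 40.1 CPM in the nonescalating input and 23.9 CPM in the saline input. Its 2 escalating libraries differed widely, at 19.8 and 0.589 CPM. Gja1 (chr10:56377330-56402513, plus strand) encodes connexin 43, which couples astrocytes into networks. It had 32.8, 0.726, 16.4, 24.4 and 19.5 CPM in nonescalating IP libraries and 12, 2.36 and 14.1 CPM in saline IP libraries, against 69.2 CPM in the nonescalating input and 41.1 CPM in the saline input. Gja1 was thus lower in every one of these IP libraries than in either input, and it was lowest in both escalating libraries, at 0.529 and 0.589 CPM, which rest on 8 and 4 counts. In withdrawal it spanned 0.993 to 18.1 CPM in nonescalating and 1.71 to 60.5 CPM in saline libraries.

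Of the 2 metabolic enzymes, Aldoc (chr11:78322968-78327781, plus strand), the brain aldolase of glycolysis, was well measured in all libraries. Aldoc was found at 36.1, 18.9, 51.6, 119 and 37.6 CPM in nonescalating IP libraries and 36.9, 33.9 and 43.2 CPM in saline IP libraries, against 228 CPM in the nonescalating input and 95 CPM in the saline input. Nonescalating replicate 4 alone reached the range of the inputs. Aldh1l1, the cytosolic 10-formyltetrahydrofolate dehydrogenase that is widely used to mark all astrocytes, was sparse. It had 3.88, 41.0, 0.322, 15.7 and 7.82 CPM in nonescalating IP libraries and 4.29, 1.18 and 1.23 CPM in saline IP libraries, against 30.3 CPM in the nonescalating input and 4.01 CPM in the saline input. Its highest library, nonescalating replicate 2, was also the lowest of the 24 for Slc1a2, so the order of the libraries differed between genes. Aldh1l1 had no count in 7 of the 24 IP libraries, 6 of them withdrawal libraries.

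Ndrg2 (chr14:51905271-51914158, minus strand), a stress-responsive member of the N-myc downstream regulated family that is abundant in astrocytes, was the second most abundant gene by CPM. It had 497, 92.9, 635, 1100.2 and 290 CPM in nonescalating IP libraries and 364, 141 and 277 CPM in saline IP libraries, against 746 CPM in the nonescalating input and 449 CPM in the saline input. Per kilobase of exon, Ndrg2 (125 CPM per kb in the 8 IP libraries, 176 in the inputs) and Slc1a2 (115 CPM per kb in the IP libraries, 178 in the inputs) were level with each other. The next gene, Aldoc, was far lower at 14.5 CPM per kb in the IP libraries and 49.5 in the inputs. Agt, which encodes angiotensinogen, a secreted hormone precursor made by astrocytes in the brain, was close to absent. Its counts were 0 in 20 of 24 IP libraries, and the other 4 held 31.5 CPM (nonescalating replicate 4), 5.79 CPM (saline replicate 1), 0.381 CPM and 0.0720 CPM, against 7.78 CPM in the nonescalating input and 1.60 CPM in the saline input.

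The cytoskeletal and calcium-binding markers were low and uneven. Gfap, the intermediate filament protein raised in reactive astrocytes, had 4.46, 0.363, 0.322, 63.0 and 20.5 CPM in nonescalating IP libraries and 21.9, 3.30 and 14.1 CPM in saline IP libraries, against 14.8 CPM in the nonescalating input and 11.6 CPM in the saline input. It was the one gene of the 10 whose IP levels lay on both sides of the inputs in similar numbers, 3 above and 4 below both inputs. S100b, a calcium-binding protein that oligodendrocyte-lineage cells also express, had 0.940, 8.71, 9.03, 52.1 and 22.5 CPM in nonescalating IP libraries and 1.5, 1.18 and 29.7 CPM in saline IP libraries, against 32.5 CPM in the nonescalating input and 22.7 CPM in the saline input. The coefficient of variation over the 24 IP libraries was 57.3% for Slc1a2 and 149.8% for Gfap, 146% for S100b, 194.5% for Aldh1l1 and 412% for Agt, and the last 4 had fewer than 10 counts in 8, 11, 14 and 22 libraries in that order.

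**Figure D1:**
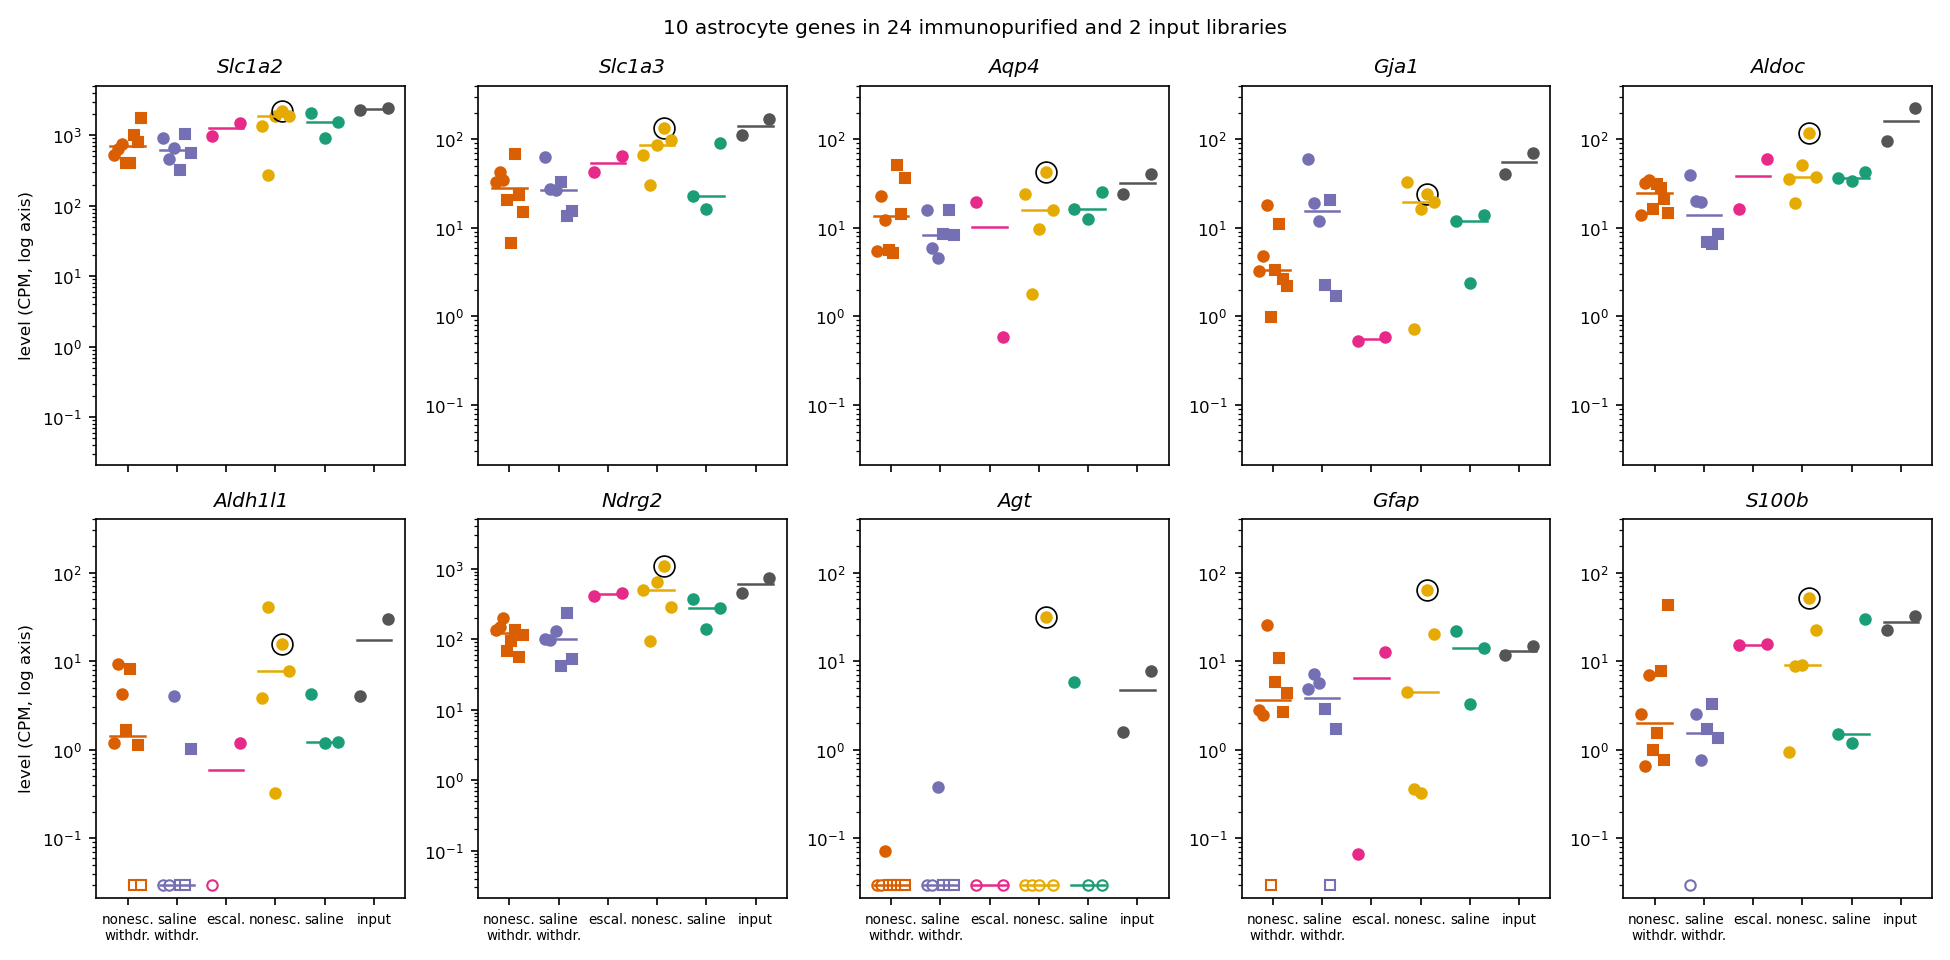
Levels of the 10 astrocyte genes in CPM on a log axis, 1 point per library, with circles for library set 1 and squares for set 2, bars at group medians, open symbols for libraries with 0 counts placed at the foot of the axis, and nonescalating replicate 4 ringed in black. Slc1a2 and Ndrg2 lie highest, the withdrawal groups sit low for both, and the ringed library is the highest IP library for 7 genes.

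Whether the pull-down left astrocyte mRNA behind was asked by comparing the 8 nonescalating and saline IP libraries with the 2 inputs, with agent as a term. Fitted levels of 9 of the 10 genes were lower in IP RNA and that of Gfap was not (median log2 fold change -0.85, against 0.07 and 47.0% below 0 over all 14929 genes), but none of the 10 passed the adjusted threshold of 0.05 in edgeR. Over all genes 0.255% passed, every one of them higher in IP RNA. At an unadjusted p under 0.05, 2 of the 10 were lower, Aldoc and Gja1, where 2.22% of all genes were. Aldoc averaged 47.2 ± 30.5 CPM in IP RNA and 162 ± 94.1 CPM in input (SD). Its fitted log2 fold change was -1.76 ± 0.54 (SE, with adjusted p = 0.222 in edgeR). Gja1 averaged 15.3 ± 10.7 CPM in IP RNA and 55.2 ± 19.9 CPM in input, with a fitted log2 fold change of -1.98 ± 0.88 (SE, with adjusted p = 0.547 in edgeR).

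The glutamate carriers came next. Slc1a3 was at -1.19 ± 0.60 on the log2 scale (SE, adjusted p = 0.654 in edgeR). Slc1a2 was at -0.62 ± 0.54 (adjusted p = 0.941), with a 95% interval of -1.67 to 0.43, so neither a depletion nor a slight gain of the transcript could be told from these 10 libraries. The fitted values of Aldh1l1 (-0.99), S100b (-0.94), Aqp4 (-0.77) and Ndrg2 (-0.63) carried standard errors of 0.60 to 1.2. Gfap was at 0.23 ± 1.42 and Agt at -0.04 ± 2.42, and without nonescalating replicate 4 they were at -0.62 for Gfap and -6.19 for Agt, which then had counts in only 1 IP library. Without that library all 10 genes were below 0 and their median was -1.2.

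Set against the input of their own agent, all 5 nonescalating IP libraries were below the nonescalating input and all 3 saline IP libraries below the saline input for Slc1a2, Slc1a3, Gja1 and Aldoc. The ratios of IP to own input for Slc1a2 were 0.114 to 0.898 (median 0.775) in nonescalating and 0.400 to 0.928 (median 0.678) in saline libraries. For Aldoc they were 0.0827 to 0.522 (median 0.165) in nonescalating and 0.356 to 0.455 (median 0.388) in saline libraries. With 1 input per agent these ratios have no error of the input. The share of all genes that lay below the inputs in this way was not counted, so no depletion is read from it.

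The call for these genes depended on the test and on which IP libraries were used. With limma voom and library weights, 3 of the 10 passed as lower in IP RNA, namely Aldoc (-2.06, adjusted p = 0.00385), Gja1 (-2.37, adjusted p = 0.0248) and Agt (-3.82, adjusted p = 0.0314), where 4.49% of all genes passed as lower. The Agt value rests on 0 counts in 6 of the 8 IP libraries. Nonescalating replicate 4 and saline replicate 1 lay above their own inputs for Agt (ratios 4.05 and 3.61), so no depletion of Agt is read from it. When all 24 IP libraries were set against the inputs, Aldoc passed in edgeR (-2.04, adjusted p = 0.0315), where 0.28% of genes passed as lower, and all 10 genes were below 0. Of these 24, 14 were withdrawal libraries, which have no input of their own, so any difference with withdrawal enters that estimate. Aldoc averaged 21.0 CPM in the 14 and 45.4 CPM in the 10 without withdrawal, and Gfap 5.52 and 14.1 CPM.

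**Figure D2:**
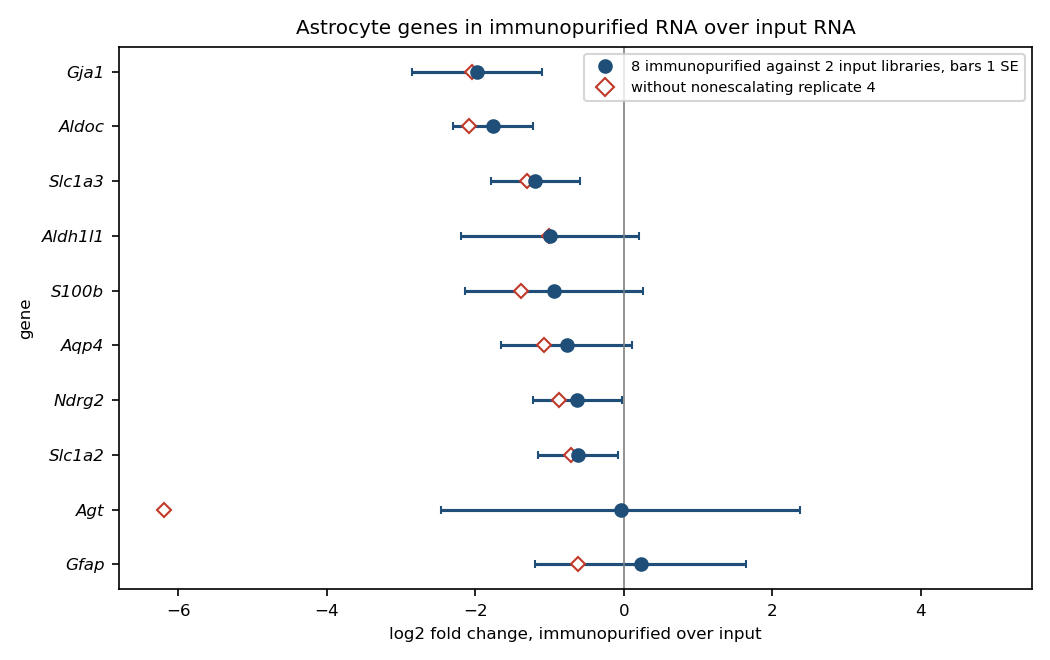
Log2 fold change of IP over input RNA for each astrocyte gene (filled circles with bars of 1 SE, 8 IP against 2 input libraries), and the same without nonescalating replicate 4 (open diamonds). Gja1 and Aldoc lie furthest below 0, Slc1a2 and Ndrg2 are near -0.6, and Gfap and Agt change most when that library is left out.

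Other genes of the same cells were read from a list of astrocyte genes outside the 10, of which 46 were in all files and were tested. Of these 32 were below 0 and 14 above in IP RNA over input (median -0.62), and none passed the adjusted threshold. Htra1, a secreted serine protease, averaged 3.10 ± 3.71 CPM in IP RNA and 16.5 ± 0.399 CPM in input (log2 fold change -3.05 ± 1.73), and Mlc1, a membrane protein of astrocyte endfeet, averaged 8.65 ± 10.2 CPM in IP RNA and 23.0 ± 4.76 CPM in input (-3.0 ± 1.47). At the other end were Mt3, a brain metallothionein (3.66 ± 2.38), and Id3, an inhibitor of basic helix-loop-helix factors (3.14 ± 1.38). Id3 averaged 20.7 ± 17.6 CPM in IP RNA and 2.39 ± 0.0233 CPM in input. The 6 genes for ion and water balance had 5 below 0 (median -0.67), and the 6 for transmitter supply had 4 below 0 (median -0.66).

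Of 12 reactive astrocyte genes 8 were tested, of which 5 were above 0 and 3 below (range -3.28 to 6.07, median 2.39), where 47.0% of all genes were below 0. Of these 8, 2 passed, where 0.255% of all genes did. Both were named after their values were seen. Osmr, the oncostatin M receptor, averaged 112.5 ± 63.8 CPM in IP RNA and 1.62 ± 0.871 CPM in input (6.07 ± 0.93, adjusted p = 0.0172 in edgeR), and Cp, ceruloplasmin, averaged 127 ± 83.7 CPM in IP RNA and 5.27 ± 0.775 CPM in input (4.63 ± 0.87, adjusted p = 0.0325). Neither gene is specific to astrocytes. All 13 genes of a list of endothelial and mural cell markers were above 0 in the same contrast (median 4.16), with Myh11, the smooth muscle myosin heavy chain, and Rgs5, a pericyte marker, passing. Their summed level was 1676 to 9908 CPM in the 8 IP libraries, against 210.2 CPM in the nonescalating input and 462 CPM in the saline input. Myelin genes of oligodendrocytes had 12 of 13 below 0 (median -2.28), further from 0 than the 10 astrocyte genes (median -0.85). Microglial genes did not share this direction, with 5 of 9 above 0 (median 0.06). Of the neuron lists, 8 of 9 D1 genes were below 0 (median -2.08), and all 10 D2 genes were above 0 (median 1.79). How far these cell types set the astrocyte values was not tested.

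Cocaine without escalation was compared with saline to ask whether drug intake alone went with a change in the astrocyte signal. None of the 10 genes passed in edgeR, where 0.0% of 15854 genes did, and none was below 0.05 unadjusted, where 6.74% of genes were in either direction. Fitted log2 fold changes were above 0 for 9 genes (median 0.87, all genes 0.01), from 2.59 ± 1.84 for Aldh1l1 and 0.98 ± 0.55 for Ndrg2 to -0.03 ± 0.49 for Slc1a2, which lay above 0 with either other scaling. Ndrg2 averaged 523 ± 383 CPM in nonescalating and 261 ± 113 CPM in saline libraries (SD), and Slc1a2 averaged 1512 ± 752 CPM in nonescalating and 1507 ± 596 CPM in saline libraries. Without nonescalating replicate 4 the median was -0.08 with 5 of 9 tested genes below 0, so the direction of the median rested on that 1 library. Set instead against the saline withdrawal libraries of set 1, as the description field would have it, 9 of 10 were above 0 (median 1.35) and again none passed. The summed level of the 10 genes was 472 to 3757 CPM (median 2388) in nonescalating and 1112 to 2577 CPM (median 2026) in saline libraries.

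Of the other astrocyte genes in this contrast, 28 of 46 were above 0 (median 0.32) and none passed. Pygb, the brain glycogen phosphorylase that releases glucose from glycogen, averaged 56.6 ± 26.8 CPM in nonescalating and 16 ± 10.3 CPM in saline libraries, with no overlap (1.80 ± 0.68, adjusted p = 0.719). Sparcl1, the secreted matricellular protein hevin, averaged 634 ± 179 CPM in nonescalating and 362 ± 150.4 CPM in saline libraries, also without overlap (0.79 ± 0.38, adjusted p = 0.726). Genes of this list are named by a small p, a choice that favours groups without overlap. The share of all genes without overlap was not counted, here or in the contrasts below, so a lack of overlap is only a description.

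Escalating cocaine had 2 libraries. Among the 10 genes Gja1 had the smallest p in both contrasts with them. It averaged 0.559 ± 0.0426 CPM in escalating, against 18.8 ± 11.8 CPM in nonescalating and 9.49 ± 6.26 CPM in saline libraries. Both escalating values lay below all 8 others, but nonescalating replicate 2, at 0.726 CPM, came close to them. The log2 fold change was -5.01 ± 1.59 against nonescalating (adjusted p = 0.558 in edgeR) and -4.04 ± 1.55 against saline (adjusted p = 0.614 in edgeR). DESeq2 called it against nonescalating (-5.19, adjusted p = 0.00356), the only one of the 10 it called in any contrast between IP groups, where 1.32% of genes passed as lower.

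Against nonescalating, all 10 fitted values were below 0 (median -0.76, all genes -0.12, or -0.98 and -0.33 when scaled by library totals only), and 2 had an unadjusted p under 0.05, Gja1 and Agt, where 5.31% of all genes were lower at that level. No gene passed after adjustment (0.0% of 15854). Agt had 0 counts in both escalating libraries, where 3 counts would be 0.198 CPM in replicate 1 and 0.442 CPM in replicate 2, and its nonescalating signal came from replicate 4 alone, so no fold is given. Without nonescalating replicate 4 the median of the 9 genes tested was -0.08 with 5 below 0. Against saline, 7 of 10 were below 0 with Aldoc at 0.00 (median -0.56, all genes -0.08), 1 of them, Gja1, at an unadjusted p under 0.05, where 4.93% of genes were lower and again 0.0% passed. Setting Agt at its bound left both medians as they were. Slc1a2 averaged 1252 ± 369 CPM in escalating, 1512 ± 752 CPM in nonescalating and 1507 ± 596 CPM in saline libraries, differences within the spread of each group. Ndrg2 averaged 429 ± 36.7 CPM in escalating, with both libraries above all 3 saline libraries (261 ± 113 CPM), and had a log2 fold change of 0.70 ± 0.66 (adjusted p = 0.829).

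Of the other astrocyte genes, 31 of 46 were below 0 against nonescalating (median -0.68) and 21 of 46 against saline (median 0.02), and none passed. Fgfr3 and Bcan, the fibroblast growth factor receptor of astrocytes and brevican, a matrix proteoglycan, had the smallest p of them in both contrasts. Fgfr3 averaged 0.0992 ± 0.140 CPM in escalating, against 13.9 ± 14.2 CPM in nonescalating and 9.10 ± 4.45 CPM in saline libraries, with no overlap, and Bcan averaged 3.87 ± 1.82 CPM in escalating, 85.7 ± 109 CPM in nonescalating and 40.2 ± 35 CPM in saline libraries, with overlap. Neither passed, at an adjusted p of 0.558 against nonescalating and 0.614 against saline. Mlc1 lay on the other side against saline, at 22.3 ± 31.5 CPM in escalating and 1.05 ± 0.808 CPM in saline libraries (4.39 ± 2.15, adjusted p = 0.614), with 1 escalating library below and 1 above all saline libraries. The nonescalating and escalating groups share the saline libraries as control, and both escalating contrasts share the escalating libraries.

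Withdrawal was compared with no withdrawal within each agent, with library set as a term. In nonescalating animals all 10 genes were fitted lower after withdrawal (median -1.10, all genes 0.01), and 3 of them had an unadjusted p under 0.05, where 1.58% of all genes were lower at that level. None passed after adjustment (0.0% of 15854). Ndrg2 had the smallest p, with 118 ± 47.2 CPM after withdrawal and 523 ± 383 CPM without (SD). Its fitted log2 fold change was -1.94 ± 0.48 (SE, with adjusted p = 1 in edgeR). Means after withdrawal pool both library sets, while fitted values take set as a term, so the 2 can differ. The withdrawal libraries of Ndrg2 ran from 54.9 to 202 CPM. Of those without withdrawal only replicate 2, at 92.9 CPM, fell in that range. Slc1a2 averaged 789.7 ± 451 CPM after withdrawal and 1512 ± 752 CPM without (-1.10 ± 0.46, adjusted p = 1), and the groups overlapped. Agt was the third, with 1 count in the 8 withdrawal libraries. Slc1a3 (-1.09 ± 0.59), S100b (-2.24 ± 1.27), Aldh1l1 (-1.36 ± 1.59), Gja1 (-0.91 ± 0.97), Gfap (-0.61 ± 1.32), Aldoc (-0.54 ± 0.61) and Aqp4 (-0.40 ± 0.88) were all above 0.05 unadjusted. The mean of Aqp4 was not lower, at 19.3 ± 16.8 CPM after withdrawal and 18.9 ± 15.7 CPM without (SD). Its withdrawal libraries averaged 13.7 CPM in set 1 and 22.6 CPM in set 2. Without nonescalating replicate 4 the median of 9 tested genes was -0.83, with 6 below 0, and Ndrg2 was at -1.46.

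In saline animals 9 of 10 were fitted lower after withdrawal (median -1.14, all genes -0.05), and 2 had an unadjusted p under 0.05, where 3.97% of genes were lower at that level, with 0.0% passing after adjustment. Slc1a2 averaged 664 ± 276 CPM after withdrawal and 1507 ± 596 CPM without (-1.34 ± 0.50, adjusted p = 0.742 in edgeR). S100b averaged 1.61 ± 1.19 CPM after withdrawal and 10.8 ± 16.4 CPM without (-3.38 ± 1.33, adjusted p = 0.742 in edgeR), but without saline replicate 4, at 29.7 CPM, the fold change was -0.46. Ndrg2 was at -1.07 ± 0.56 (adjusted p = 0.768), with 109 ± 70.0 CPM after withdrawal and 261 ± 113 CPM without. Gja1 was the exception, at 1.45 ± 1.10, with 19.4 ± 21.7 CPM after withdrawal and 9.49 ± 6.26 CPM without, and 1 withdrawal library at 60.5 CPM.

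Within library set 1 alone the picture was similar, with all 10 genes below 0 in nonescalating animals (median -1.17) and 9 of 10 in saline animals (median -1.08), and again none passed. Summed over the 10 genes, levels were 418 to 2007 CPM (median 886) in the 14 withdrawal libraries and 472 to 3757 CPM (median 2075) in the 10 without. Slc1a2 alone was 57.9% to 88.6% of that sum in the 24 libraries. Mean Gja1 was 11.6 CPM with withdrawal and 12.3 CPM without, and mean Aqp4 15.2 and 16.9 CPM, while the other means were further apart. All sums given here pool agents and library sets, and the 10 libraries without withdrawal include the escalating ones. The sum of 13 oligodendrocyte genes was 235 to 861 CPM (median 468) with withdrawal and 414 to 3542 CPM (median 1170.2) without, and that of 10 microglial genes was 2.39 to 51.4 CPM with withdrawal and 13.1 to 443 CPM without. Gene by gene, 9 of the 13 oligodendrocyte genes were fitted below 0 in nonescalating animals (median -0.43). In saline animals 6 of 13 were (median 0.02), so the lower sum was not shared by most of them. All 9 microglial genes tested were below 0 in both agents (medians -1.55 and -2.28). Of all genes 49.5% were below 0 in nonescalating and 52.4% in saline animals. Drd2 averaged 2039 ± 636 CPM with withdrawal and 1993 ± 821 CPM without. The part of these other glial markers in the astrocyte values was not tested.

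Of the other astrocyte genes, 38 of 46 were below 0 after withdrawal in nonescalating animals (median -0.78) and 35 of 46 in saline animals (median -0.53), with none passing. Nwd1 had the smallest p of them in saline animals, with 16.1 ± 10.7 CPM after withdrawal and 96.5 ± 14.3 CPM without, groups that did not overlap (-3.10 ± 0.78, adjusted p = 0.742). In nonescalating animals Nwd1 averaged 32.4 ± 19.0 CPM after withdrawal and 85.2 ± 67.9 CPM without. Slc6a11, the astrocytic GABA transporter GAT-3, averaged 19.4 ± 8.73 CPM after withdrawal and 88.3 ± 84.8 CPM without in nonescalating animals (-2.08 ± 0.68, adjusted p = 1). Fitted values of reactive astrocyte genes did not share this direction, with 9 of 11 above 0 in nonescalating (median 0.39) and 7 of 11 in saline animals (median 0.38). Of all genes 49.5% were below 0 in nonescalating and 52.4% in saline animals. The pooled sum of the 12 reactive genes was lower, however, at 41.3 to 724 CPM (median 181.6) with withdrawal and 86.2 to 765 CPM (median 344.9) without. The direction for this list thus depended on the measure.

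**Figure D3:**
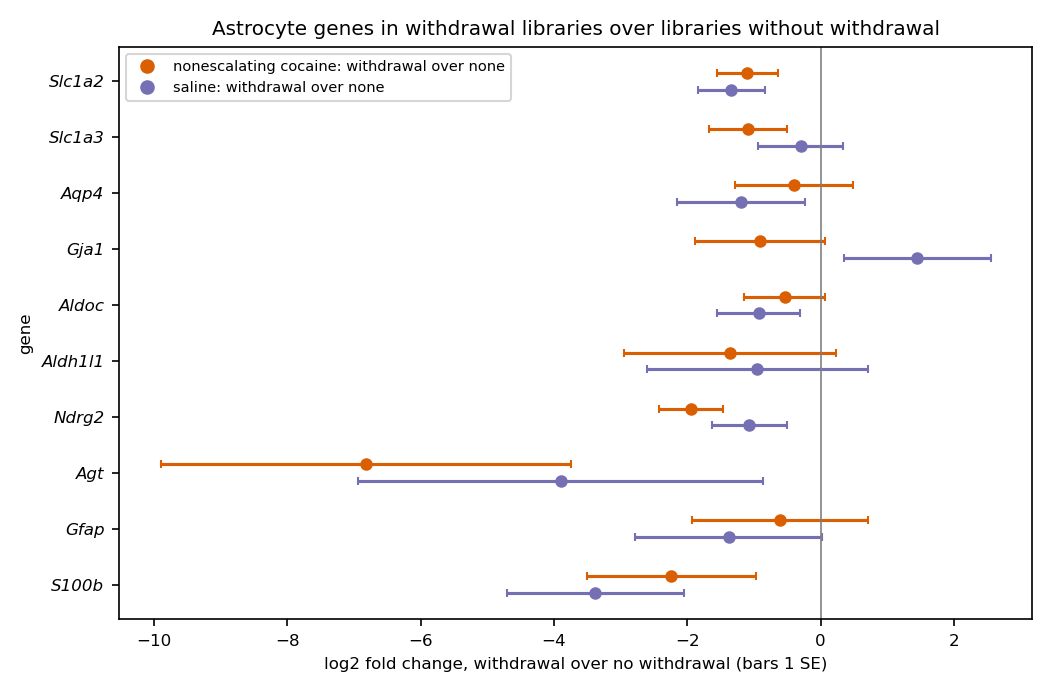
Log2 fold change of withdrawal over no withdrawal for each astrocyte gene in nonescalating (orange) and saline (purple) animals, with bars of 1 SE from edgeR and library set as a term. All points but Gja1 in saline animals lie below 0, and the values of Agt rest on very few counts.

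After withdrawal, nonescalating cocaine was set against saline. None of the 10 passed (0.0% of genes did), and none was under 0.05 unadjusted, where 3.49% of genes were in either direction. Fitted values were above 0 for 8 genes (median 0.53, all genes 0.05). Slc1a2 averaged 789.7 ± 451 CPM in nonescalating withdrawal and 664 ± 276 CPM in saline withdrawal libraries (0.21 ± 0.38), Ndrg2 averaged 118 ± 47.2 CPM in nonescalating withdrawal and 109 ± 70.0 CPM in saline withdrawal libraries (0.11 ± 0.40), and Aldoc averaged 24.2 ± 8.55 CPM in nonescalating withdrawal and 16.8 ± 12.6 CPM in saline withdrawal libraries (0.85 ± 0.50). Gja1 lay on the other side, at 5.80 ± 5.84 CPM in nonescalating withdrawal and 19.4 ± 21.7 CPM in saline withdrawal libraries (-1.39 ± 0.79, adjusted p = 1). The difference between the withdrawal effects of both agents was tested as an interaction. Its median over the 10 genes was -0.09 (0.41 for the 9 tested without nonescalating replicate 4), none passed (0.0%), and none was under 0.05 unadjusted, where 4.89% of genes were. The interval for each gene was wide, as for Slc1a2 (0.23 ± 0.62, SE), so similar effects in both agents are not shown by this.

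Across the 24 IP libraries most pairs of the 10 genes were positively related. Of 45 pairs, 41 had a Spearman's rho above 0 on log2 CPM (median 0.379, range -0.121 to 0.798), and 8 passed a permutation test at an adjusted p of 0.05 over the 45. The closest pair was Slc1a2 and Ndrg2, with Pearson's r = 0.779 and rho = 0.798 (adjusted permutation p = 0.00135 and 0.00045, n = 24, two-sided; an unadjusted 1e-05 for rho is the smallest value that 100000 resamples can give). Leaving out the 2 libraries farthest from the median Slc1a2 level gave r = 0.758. Within the 14 withdrawal libraries rho was 0.565 and within the 10 without it was 0.612, both below the pooled value. It was 0.841 in library set 1 and 0.738 in set 2, so this pair held in both. Aldoc formed 4 of the other pairs that passed, with Slc1a3 (r = 0.613, rho = 0.652), Ndrg2 (r = 0.677, rho = 0.637), Gfap (r = 0.608, rho = 0.625) and Slc1a2 (r = 0.572, rho = 0.608). In set 2 alone, rho was 0.623 with Gfap but -0.0714 with Slc1a2, 0.0714 with Slc1a3 and 0.119 with Ndrg2, so those last 3 pairs did not hold there. Set 2 holds withdrawal libraries only. Within all 14 withdrawal libraries rho of Aldoc was 0.563 with Gfap, 0.503 with Slc1a3, 0.231 with Ndrg2 and 0.147 with Slc1a2. Within the 10 without withdrawal it was 0.588, 0.673, 0.588 and 0.758 in that order. Aldh1l1 was in 3 of the 4 pairs below 0, at -0.0282 with Slc1a2, -0.0370 with S100b and -0.121 with Aqp4. Over all 45 pairs the median rho was 0.325 in the 16 libraries of set 1, 0.138 in the 8 of set 2 (36 pairs, since Agt had no count there) and 0.301 without nonescalating replicate 4. The median was 0.231 within the 14 withdrawal libraries and 0.43 within the 10 without. Permutations ran over all 24 libraries regardless of group, so differences between groups enter the permutation p-values. All points share library depth and TMM scaling.

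**Figure D4:**
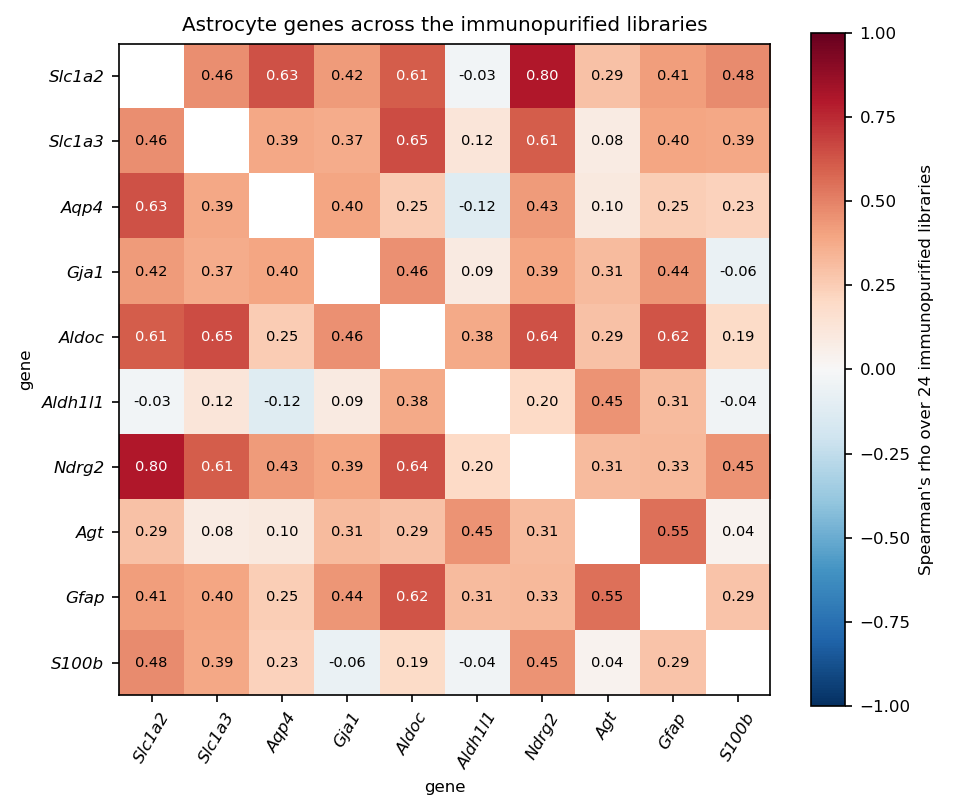
Spearman's rho between each pair of astrocyte genes over the 24 IP libraries, from blue (below 0) to red (above 0). Slc1a2 and Ndrg2 form the closest pair at 0.80, and Aldh1l1 is in 3 of the 4 pairs below 0.

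The genes whose levels followed the 10 most closely were ranked by their median rho with them, among the 10538 genes whose log2 CPM averaged 2 or more over the same 24 libraries. First was Atp1b2 (0.554), the astrocytic beta subunit of the sodium pump. Then came 3110039I08Rik (0.487), Apoe (0.486), the lipid carrier that astrocytes secrete, Kif5a (0.484), a kinesin heavy chain of neurons, Plekhb1 (0.477), Tnk2 (0.474), Ddah1 (0.471) and Kcnj10 (0.466), the inward rectifier Kir4.1 through which astrocytes clear potassium. Atp1b2, Apoe and Kcnj10 belonged to the list of other astrocyte genes. That list had 29 genes in the ranking with a median of 0.32, 27 of them above 0, against a median of -0.00736 and 48.6% above 0 over all ranked genes. Atp1b2 averaged 182 CPM in the 24 IP libraries and 292 CPM in the inputs, and Kcnj10 averaged 45.5 CPM in the IP libraries and 111 CPM in the inputs.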

How the data were processed

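Per-gene read counts of 24 IP and 2 input libraries were used as deposited. The authors' files hold raw whole-number counts per gene symbol, not normalized. STAR 2.0.0e, HTSeq and build mm10 are named per the submitters' processing notes. No source used here gives the annotation or strand handling, so reads of overlapping or antisense genes cannot be separated. HTSeq's 5 summary lines were left out. They put 29.7% to 62.5% of reads in no feature in the IP libraries, 43.78% in the saline input and 25.36% in the nonescalating input. Exon lengths and coordinates come from GENCODE M21 (GRCm38). Libraries of set 1 listed 32657 gene symbols, against 32531 in those of set 2, so the 2 sets were counted over different gene lists. The 31735 shared symbols held 99.0% to 99.3% of gene counts. Whether the difference in gene lists altered the levels of the astrocyte genes in set 2 was not tested.

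Members and gene lists were chosen with earlier results of these data known. R 4.3.3 with edgeR 4.0.16 (quasi-likelihood test, TMM, filterByExpr with a minimum count of 10, Benjamini-Hochberg at 0.05) was the main test, checked on simulated counts. One fit took all 24 IP libraries, with terms for group and library set, and another 8 IP against 2 inputs with agent. Alternatives were DESeq2 1.42.0, limma 3.58.1 voom, other scalings, filters, blocks and libraries left out. All 10 members are named. Of the other astrocyte genes, the rule allowed the 4 with the smallest p per comparison and the 2 highest and 2 lowest fold changes against input, of which part are printed. Groups and replicate numbers come from the titles. No 2 libraries of 1 group agreed within sampling noise (lowest chi-square per degree of freedom 20.4 over 57 pairs). Whether each library is a separate animal is not given, so p-values measure the spread between libraries, which may be technical in part.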

Additional observations from a re-analysis of the deposited data

Results flagged for a closer look

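Of 30 combinations of a gene and a group of 4 to 10 libraries, 8 held a library whose gap to its nearest neighbour was too large a share of the group's range by Dixon's 95% limits. Chance alone passes these limits in about 1 of 20 only for normally distributed values, so 8 of 30 is not read as an excess. For Agt all other libraries of the group were at 0, so any count at all would be marked. In nonescalating libraries this was Agt in replicate 4 (31.5 CPM, the other 4 at 0). In saline withdrawal it was Gja1 in replicate 1 of set 1 (60.5 CPM, the next at 20.8 CPM), and Aldh1l1 (4.0 CPM, the next at 1.03 CPM) and Agt (0.381 CPM, the others at 0) in replicate 3 of set 1. In nonescalating withdrawal, Slc1a2 (1778 CPM, the next at 1012.5 CPM) and S100b (43.1 CPM, the next at 7.65 CPM) stood out in replicate 5 of set 2, and Gfap (25.9 CPM, the next at 11 CPM) and Agt (0.0720 CPM, a single count) in replicate 4 of set 1.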

How the results depend on the processing

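None of the results reversed past the threshold under any alternative run. Counts of genes that passed moved with the tool, and DESeq2 called 34 (nonescalating over saline), 143 (escalating over saline), 225 (escalating over nonescalating), 2 (nonescalating over saline withdrawal), 30 (withdrawal over none, saline), 11 (difference of withdrawal effects) and 758 (IP over input), where edgeR called 0 in each contrast between IP groups and 38 against input. Limma voom called 8 genes for escalating over nonescalating and 1356 against input. The input contrast also gave 132 genes with no filter, 70 with a CPM of at least 1, 321 with a replicate block, 150 with all 24 IP libraries, 160 with the 16 of set 1 and 65 with no agent term. Of the 10 astrocyte genes, DESeq2 called 1 (escalating over nonescalating), and against input limma voom called 3, the 24-library fit 1 and the 16-library fit 1. With 1 library left out, counts ran from 0 to 1 (escalating over saline), 0 to 2 (escalating over nonescalating) and 1 to 252 (input), and the median of the 10 genes for escalating over nonescalating from -1.32 to -0.08. Single-gene values kept their direction and side of the threshold in 1548 of 1645 refits, 91 changed sign without passing and 6 passed. Deviations of same-numbered libraries had r from -0.273 to 0.400 (median 0.123, 14 of 25 pairs over 0.1, against a median of -0.0209 and 25 of 90 for other numbers), and since not every pair was over 0.1 the numbers were not taken to pair the libraries. In fits with the replicate block, no astrocyte gene passed in any contrast. Agt, Aldh1l1, S100b and Gfap had under 10 counts in 8 to 22 of the 24 IP libraries, and the contrast with input rests on 2 input libraries.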

Other observations

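Among astrocyte genes outside the 10, a few with the smallest p in a comparison are given here as values, none of which passed the adjusted threshold. Choice by p favours groups without overlap, and the share of all genes without overlap was not counted. Pygb, brain glycogen phosphorylase, averaged 39 ± 15 CPM with withdrawal and 16 ± 10.3 CPM without in saline animals, groups that did not overlap (log2 fold change 1.73 ± 0.71, adjusted p = 0.742 in edgeR), where 35 of the 46 genes were fitted below 0. Its withdrawal effect in nonescalating less that in saline animals was -2.04 ± 0.81 (adjusted p = 0.972). Both Pygb values, and that for nonescalating over saline given above, use the same saline libraries without withdrawal (16 ± 10.3 CPM), so they are not separate results. Cst3, the secreted protease inhibitor cystatin C, averaged 37.6 ± 18.8 CPM with withdrawal and 102 ± 62.4 CPM without in nonescalating animals (-1.14 ± 0.41, adjusted p = 1), and 7 of its 8 withdrawal libraries lay below all 5 others. Slc16a1, the monocarboxylate transporter MCT1 that endothelial cells also express, averaged 61.3 ± 39.9 CPM in IP RNA and 16.4 ± 3.12 CPM in input (1.95 ± 0.82, adjusted p = 0.490).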
